A study of Mus musculus with 24 samples.

Results

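RNA sequencing reads of 10 endothelial activation and barrier genes were followed in hearts, lungs and peritoneal cells of male C57BL/6 mice treated with β-nicotinamide mononucleotide (β-NMN), a precursor of NAD+, or with saline as vehicle. The genes were chosen by symbol: *Sele*, *Selp*, *Vcam1*, *Icam1*, *Angpt1*, *Angpt2*, *Tek*, *Cdh5*, *Cldn5* and *Pecam1*, 10 of 54658 genes counted. In the septic arm, mice 7 to 12 weeks old underwent cecal ligation and puncture (CLP), a polymicrobial peritonitis, received β-NMN at 185 mg/kg or vehicle intraperitoneally after surgery, and gave heart and lung 24 h later, with 3 vehicle and 3 β-NMN mice and both organs from the same animals. All 12 of these libraries therefore came from septic mice, and no sham animal is compared here. In the sterile arm, mice of the same ages received 1 mL of 4% thioglycolate (TGC) and daily injections of β-NMN at 185 mg/kg or vehicle for 3 days, and their peritoneal cells were plated and exposed to *E. coli* for 6 h, with 6 mice in each group.

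The products of these genes sit at the surface and the junctions of the cells that line blood vessels. During infection, cytokines and bacterial products induce adhesion molecules on these cells: selectins catch passing leukocytes, and immunoglobulin-type adhesion molecules hold them through integrins. Separately, angiopoietin-1, released largely by cells around the vessel, activates the Tie2 receptor and tightens the vessel wall, angiopoietin-2 from the endothelium itself opposes it, and VE-cadherin, claudin-5 and PECAM-1 hold neighbouring cells together.

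Reads per library added up to between 27319513 and 68523239 in hearts, between 8915366 and 28356786 in lungs and between 31126823 and 112456050 in peritoneal cells. Marker genes were present as the tissue labels say: the 7 cardiomyocyte markers summed to between 31370 and 60975 CPM (reads scaled to a fixed library total) in hearts and to at most 420.4 CPM in lungs, and the 9 lung epithelial markers summed to between 56412 and 101061 CPM in lungs. The 28 other endothelial marker genes summed to between 2158 and 2429 CPM in hearts and between 5582 and 7215 CPM in lungs, against 324.04 to 498.4 CPM in peritoneal cells. Both libraries of vehicle replicate 2 stood apart. Its lung had the lowest total, and its log2 CPM values differed from those of the other lungs with an SD of 1.57 over genes, against 0.45 to 0.60 for the other lungs. Its heart had an SD of 0.99, against 0.39 to 0.58, and 9639 CPM of the 4 atrial markers, against 31.1 to 1170 CPM in the other 5 hearts. The fold changes of the 10 genes between treatments in CLP organs are therefore given with and without that mouse.

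The starts of 3 of the genes that lay lower together in β-NMN hearts are shown first, because their upstream sequences are where shared motifs would be looked for. Windows from RefSeq (build GRCm38.p6) were found for 5 of the 10 genes, namely *Sele*, *Selp*, *Icam1*, *Tek* and *Cldn5*. Each sequence below is the 250 bases before the start that RefSeq gives, read 5′ to 3′ on the plus strand, which is the strand of all 3 genes. For *Icam1* that start lies upstream of the GENCODE start given further on (chr9:21015985). Capitals mark matches to the AP-1 letters TGANTCA, where N is any base. *Sele* and *Selp* lie near each other on chromosome 1 (chr1:164047984-164048233 and chr1:164115014-164115263), and the *Icam1* window lies at chr9:21015690-21015939.
Sele: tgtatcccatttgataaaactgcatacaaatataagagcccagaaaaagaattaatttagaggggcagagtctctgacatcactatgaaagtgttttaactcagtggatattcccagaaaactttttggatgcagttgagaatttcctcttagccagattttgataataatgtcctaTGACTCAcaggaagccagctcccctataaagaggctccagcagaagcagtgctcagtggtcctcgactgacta
Selp: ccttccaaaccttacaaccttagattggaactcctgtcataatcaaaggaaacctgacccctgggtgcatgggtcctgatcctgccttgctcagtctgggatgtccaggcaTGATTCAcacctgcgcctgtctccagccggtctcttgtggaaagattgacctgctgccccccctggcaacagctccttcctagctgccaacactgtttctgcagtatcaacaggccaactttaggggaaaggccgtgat
Icam1: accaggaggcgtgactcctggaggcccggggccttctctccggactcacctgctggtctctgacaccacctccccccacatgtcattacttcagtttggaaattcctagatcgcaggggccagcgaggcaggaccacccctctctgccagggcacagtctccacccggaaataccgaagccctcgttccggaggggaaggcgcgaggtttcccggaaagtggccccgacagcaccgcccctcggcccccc

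The AP-1 letters began 73 bases before the start of *Sele* and 139 bases before that of *Selp*, both on the gene's own strand, and were in no window of *Icam1*, *Tek* or *Cldn5*. Among all 32851 windows of 300 bases (250 before to 50 after a start), 7.81% held these letters on either strand. The κB consensus and the FOX letters GTAAACA were in 0 of the 5 windows, against 4.51% and 3.65% of all windows. The κB search took only exact matches to a consensus that begins with GGG and ends with CC, so close variants of it, which these windows may hold, were not counted. These matches describe letters and not bound factors.

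Levels were first compared between the genes within each tissue, per kilobase of exon and in vehicle libraries, so that long and short genes stand on one scale. In hearts, *Pecam1* (52.0 ± 9.55 CPM per kilobase, SD, n = 3) and *Cdh5* (50.3 ± 5.51) led, and their ranges overlapped. *Cldn5* (27.4 ± 12.8), *Icam1* (17.8 ± 5.58) and *Tek* (16.8 ± 0.90) came next, followed by *Selp* (8.86 ± 9.02), *Angpt1* (6.29 ± 1.90), *Sele* (5.73 ± 3.36) and *Vcam1* (5.08 ± 1.53), and each of these neighbours overlapped the next. Only the steps from *Cdh5* to *Cldn5* and from *Vcam1* to *Angpt2* (0.868 ± 0.723) were free of overlap. In vehicle heart 2, *Selp* exceeded *Tek*, and *Angpt2* had the lowest mean of the 10 genes.

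In vehicle lungs the order changed. *Cldn5*, the claudin of endothelial tight junctions, led at 1136 ± 1161 CPM per kilobase, a mean pulled up by replicate 2, and even its lowest library (362.7) was above the highest of any other of these genes. *Icam1* (89.5 ± 65.8), *Pecam1* (88.8 ± 27.4) and *Cdh5* (78.7 ± 33.2) followed with overlapping ranges, ahead of *Tek* (25.7 ± 14.2). *Vcam1* (5.14 ± 1.87) and *Angpt1* (4.51 ± 0.69) overlapped each other, and *Selp* (2.51 ± 0.98), *Angpt2* (1.27 ± 0.49) and *Sele* (0.628 ± 0.612) were last, the final pair overlapping.

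Peritoneal cells, counted in another table and scaled separately, held few transcripts of vessel-defining genes. *Icam1* (269.1 ± 57.1 CPM per kilobase, SD, n = 6) and *Vcam1* (27.9 ± 9.36) led without overlap. *Pecam1* (3.002 ± 1.52), *Sele* (2.72 ± 0.64), *Angpt1* (2.41 ± 0.71), *Selp* (2.28 ± 0.48) and *Cdh5* (1.28 ± 0.28) formed a run in which neighbours overlapped, and *Angpt2* stood below it without overlap at 0.351 ± 0.141. *Cldn5* (0.034 ± 0.030) and *Tek* (0.031 ± 0.031) were close to 0. The adhesion molecules that leukocytes and stromal cells also carry were thus present in this population, while *Tek* and *Cldn5* were nearly absent.

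**Figure D1:**
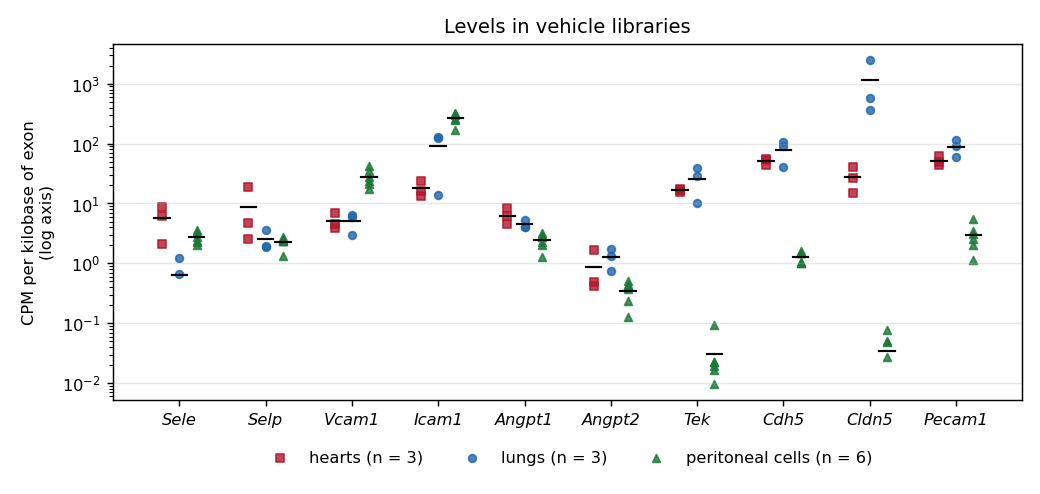
CPM per kilobase of exon (log axis) of each gene in every vehicle library of hearts (squares), lungs (circles) and peritoneal cells (triangles), with the group mean as a bar; libraries at 0 are not drawn. *Cldn5* runs from 0.034 in peritoneal cells to 1136 in lungs on average, while *Icam1* is highest in peritoneal cells.

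The first question was whether β-NMN shifted these genes in septic hearts. The 4 leukocyte adhesion molecules lay below vehicle in every β-NMN heart, by ratios of group means between 2.18 and 11.8, and the junction gene *Cdh5* and the receptor gene *Tek* lay above vehicle in every β-NMN heart, by small margins. By edgeR's quasi-likelihood test with Benjamini-Hochberg adjustment over 16245 genes, none of the 10 genes was called (smallest adjusted p = 0.435), as no gene of the whole table was (0.0% called). At an unadjusted p below 0.05, 5 of 10 genes passed, against 11.3% of all genes, and 4 of these were lower, against 7.63%. DESeq2's Wald test called 4 genes as lower (*Sele*, *Selp*, *Vcam1* and *Icam1*), against 1.38% of all genes called as lower and 1.61% called in either direction. Without vehicle replicate 2 it called the same 4 genes as lower, against 1.62% of all genes (2.43% in either direction). limma-voom called 0 of the 10 genes, against 0.0185% of all genes, all of these lower. In bulk tissue, fewer cells of a type and less RNA per cell cannot be told apart from the level of 1 gene alone; the mean level of the 28 other endothelial markers overlapped between the groups of hearts, and each gene is set against it further on.

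Selectins catch leukocytes from the flow. *Sele*, which encodes E-selectin, a molecule that endothelium makes on activation, stood at 6.22, 25.6 and 18.2 CPM in vehicle hearts 1 to 3 and at 2.46, 1.46 and 2.64 CPM in β-NMN hearts 1 to 3. The lowest vehicle heart was above the highest β-NMN heart, and vehicle 2 was the highest of all. The log2 fold change was −2.94 ± 0.53 (SE; β-NMN over vehicle), with an edgeR adjusted p of 0.435 and a DESeq2 adjusted p of 8.61e-06; without vehicle 2 it was −2.49 with 0.156 by edgeR and 0.00757 by DESeq2. *Selp*, which encodes the P-selectin that endothelium and platelets store in granules, stood at 11.5, 84.7 and 21.1 CPM with vehicle and at 4.25, 2.61 and 3.05 CPM with β-NMN. Its groups did not overlap either, and vehicle 2 was again far above the other hearts. The log2 fold change of *Selp* was −3.58 ± 0.76 (edgeR adjusted p = 0.435, DESeq2 2.59e-05), and without vehicle 2 it was −2.32 (0.109 and 3.57e-10).

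The integrin ligands moved less. *Vcam1*, whose product binds α4 integrins on monocytes and lymphocytes, stood at 34.3, 60.3 and 40.5 CPM in vehicle hearts and at 25.9, 18.9 and 17.2 CPM in β-NMN hearts. *Icam1*, whose product binds the β2 integrins of neutrophils and monocytes, stood at 58.7, 105.1 and 69.1 CPM with vehicle and at 38.9, 27.7 and 36.1 CPM with β-NMN. For both genes the groups were apart, and vehicle 2 was again highest. The log2 fold change was −1.13 ± 0.25 for *Vcam1* (edgeR adjusted p = 0.435, DESeq2 0.0129) and −1.18 ± 0.25 for *Icam1* (0.435 and 0.00427). Without vehicle 2 they were −0.87 (0.189 by edgeR, 0.00204 by DESeq2) and −0.91 (0.148 and 7.18e-05).

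These 4 were the genes of the list whose β-NMN hearts all lay below the vehicle hearts, 4 of 10 against 11.5% of all genes tested (with *Tek* and *Cdh5* above, 6 of 10 were apart in either direction, against 23.1%). Over the DESeq2 test and the other alternatives together, adjusted p ran from 8.61e-06 to 0.474 for *Sele*, from 3.57e-10 to 0.474 for *Selp*, from 0.00204 to 0.474 for *Vcam1* and from 7.18e-05 to 0.734 for *Icam1*, and outside DESeq2 the lowest was 0.0897, of *Sele*. Leaving out single hearts gave edgeR adjusted p from 0.0895 to 0.750 for *Sele*. With 3 hearts a group, the smallest exact two-sided permutation p is 0.1, which all 4 reached. Neutrophil markers moved in the same hearts: the 10 genes summed to between 26.8 and 46.4 CPM with vehicle and between 17.1 and 20.1 CPM with β-NMN, and 9 of the 9 tested had a fold change below 0. The 7 platelet markers summed to between 13.5 and 29.7 CPM against 7.43 to 12.9 CPM, with 4 of 4 tested below 0. The 7 cardiomyocyte markers summed to between 31370 and 54366 CPM with vehicle and between 56409 and 60975 CPM with β-NMN, with 7 of 7 above 0, and the 6 fibroblast markers to between 963.2 and 1862 CPM against 804.4 to 1171 CPM, overlapping, with 6 of 6 below 0. The 6 mesothelial markers (10.1 to 115.2 CPM against 5.92 to 10.9 CPM) and the 4 atrial markers (31.1 to 9639 CPM against 43.5 to 214.2 CPM) overlapped. Of those tested, 5 of 5 and 4 of 4 were below 0. The 7 mural markers were split, with 5 above 0 and 2 below, as were the 8 monocyte and macrophage markers, with 2 above and 6 below. The part of these cells in the *Selp*, *Icam1* and other values was not tested.

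**Figure D2:**
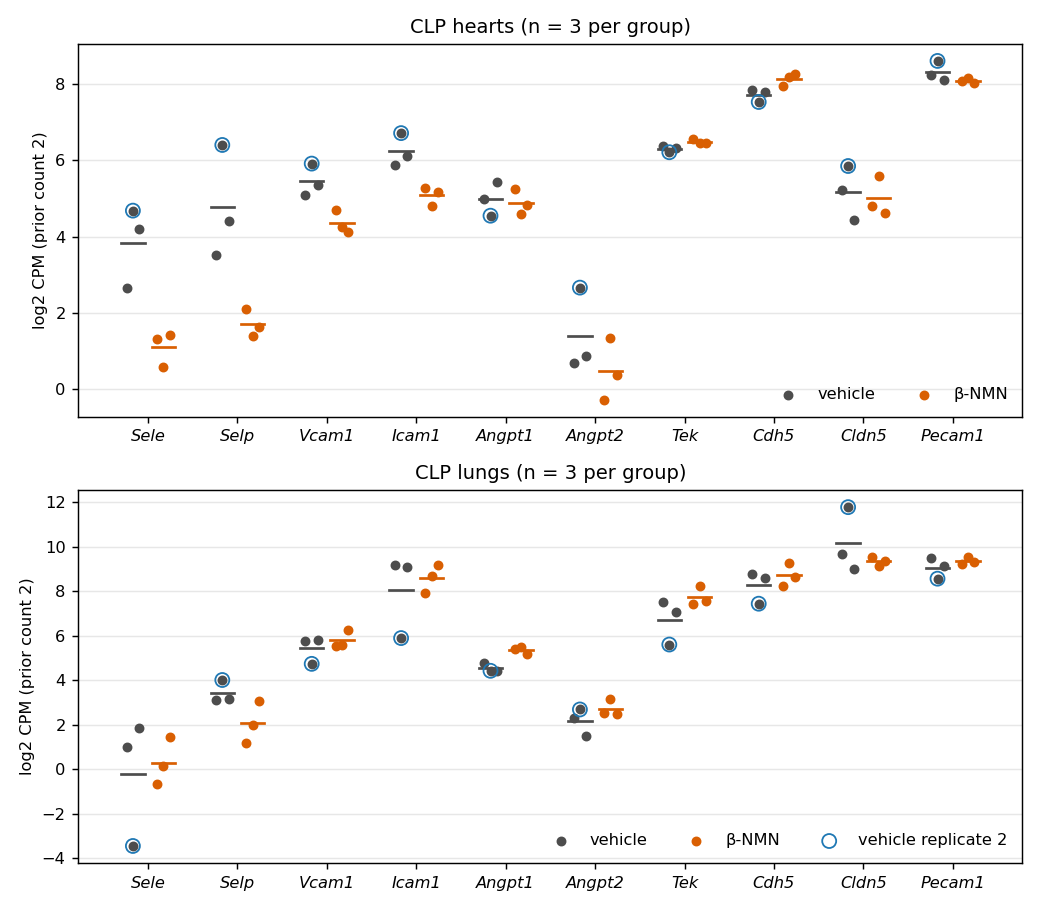
Log2 CPM of the 10 genes in each CLP heart (top) and lung (bottom), vehicle in grey and β-NMN in orange, with group means as bars and both libraries of vehicle replicate 2 ringed in blue; *Sele* had 0 reads in the ringed lung. In hearts the 4 adhesion molecules separate by treatment, and in lungs most genes overlap.

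The angiopoietins overlapped between the groups in hearts, while the gene of their receptor lay slightly higher with β-NMN. *Angpt1*, the activating ligand, stood at 31.7, 23.4 and 43.1 CPM with vehicle and at 37.9, 23.9 and 28.6 CPM with β-NMN, and the groups overlapped throughout. Its log2 fold change was −0.12 ± 0.26 (edgeR adjusted p = 0.825), and −0.32 without vehicle 2. *Angpt2*, the opposing ligand that endothelium releases on activation, stood at 1.55, 6.28 and 1.78 CPM with vehicle and at 0.782, 2.48 and 1.26 CPM with β-NMN. The groups overlapped, and the log2 fold change of −1.08 ± 0.66 (adjusted p = 0.487) rested on vehicle 2, since it was −0.13 without it. *Tek*, which encodes Tie2, stood at 82.4, 74.2 and 80.2 CPM with vehicle and at 94.7, 87.3 and 88.6 CPM with β-NMN. The β-NMN hearts were all above the vehicle hearts, and the log2 fold change was 0.19 ± 0.10 (adjusted p = 0.460), or 0.14 without vehicle 2.

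The ratio of *Angpt2* to *Angpt1* CPM, in which a higher value means more of the opposing ligand, was 0.0489, 0.269 and 0.0412 in vehicle hearts and 0.0206, 0.103 and 0.0439 in β-NMN hearts. The groups overlapped, and the highest value was that of vehicle 2. In lungs it was 0.178, 0.297 and 0.129 with vehicle and 0.137, 0.192 and 0.153 with β-NMN, again overlapping, with vehicle 2 highest.

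Of *Cdh5*, *Cldn5* and *Pecam1*, only *Cdh5* separated by treatment in hearts. *Cdh5*, which encodes VE-cadherin of the adherens junction, stood at 228.7, 185.2 and 220.6 CPM with vehicle and at 248.5, 293.2 and 309.0 CPM with β-NMN. Every β-NMN heart was above every vehicle heart, and with *Tek* this made 2 of 10 genes, against 11.6% of all genes. The log2 fold change was 0.42 ± 0.15 (edgeR adjusted p = 0.435, unadjusted p = 0.0280 in a fit of all genes by edgeR), 0.33 without vehicle 2, and DESeq2 did not call it (adjusted p = 0.162). *Cldn5* stood at 37.2, 57.7 and 21.5 CPM against 28.1, 47.8 and 24.6 CPM, and *Pecam1*, whose product joins endothelial cells and is also on platelets and leukocytes, stood at 301.6, 391.0 and 278.3 CPM against 271.8, 284.5 and 261.6 CPM. Both overlapped, with log2 fold changes of −0.21 ± 0.39 and −0.25 ± 0.17 (adjusted p = 0.792 and 0.512). The first turned to 0.18 without vehicle 2 and the second was −0.10.

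Each gene was also set against the other endothelial genes of the same heart, as its log2 CPM minus the mean log2 CPM of the 28 other endothelial markers. That mean overlapped between the groups, at 5.84, 5.66 and 5.71 in vehicle hearts and 5.76, 5.92 and 5.87 in β-NMN hearts. On this scale the differences between group means were −2.85 for *Sele*, −3.18 for *Selp*, −1.22 for *Vcam1* and −1.27 for *Icam1*, and the groups stayed apart for all 4. *Cdh5* was 0.31 higher without overlap, *Tek* overlapped (0.08), and *Pecam1* was 0.35 lower without overlap (−0.35). Without vehicle 2 the 4 adhesion molecules were at −2.39, −2.33, −0.95 and −0.99, *Cdh5* at 0.25 and *Pecam1* at −0.17.

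In lungs of the same mice, *Sele*, *Vcam1* and *Icam1* overlapped between the groups, and *Selp* lay below vehicle in every β-NMN lung. None of the 10 genes was called by edgeR (smallest adjusted p = 0.969, with 0.0% of all 17008 genes called), none by limma-voom (0.0412% of all genes called, all as lower), none by DESeq2 (0.0529% of all genes called, 0.047% as lower, and 0.131% without vehicle 2), and 1 of 10 had an unadjusted p below 0.05, against 1.77% of all genes. *Selp* was the gene whose β-NMN lungs all lay below vehicle (1 of 10, against 3.75% of all genes) and *Angpt1* the one whose β-NMN lungs all lay above (1 of 10, against 4.47%), so that 2 of 10 were apart, against 8.21%.

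*Selp* stood at 8.43, 16.04 and 8.74 CPM in vehicle lungs and at 2.19, 3.91 and 8.22 CPM in β-NMN lungs. The margin between the groups was small, and the log2 fold change was −1.20 ± 0.54 (edgeR adjusted p = 0.969), −0.82 without vehicle 2 and −1.83 without β-NMN 3. *Sele* stood at 1.92, 0 and 3.56 CPM with vehicle and at 0.548, 1.01 and 2.60 CPM with β-NMN. The vehicle lung at 0 reads allows up to 0.433 CPM by counting error alone (3 reads), the groups overlapped, and the log2 fold change was −0.45 ± 1.09, a value that was −0.94 without vehicle 2 and ran from −1.27 to 0.39 when single lungs were left out. The other 5 lungs held 9 to 86 reads. As the SE of 1.09 exceeded the fitted change, a difference of that size in *Sele* was not detectable.

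*Vcam1* stood at 53.7, 26.6 and 56.6 CPM in vehicle lungs and at 45.7, 48.3 and 76.8 CPM in β-NMN lungs, a log2 fold change of 0.32 ± 0.36 (edgeR adjusted p = 0.969), which was 0.05 without vehicle 2. *Icam1* stood at 571.8, 59.4 and 539.3 CPM with vehicle and at 242.9, 414.4 and 572.9 CPM with β-NMN, a log2 fold change of 0.07 ± 0.77 (adjusted p = 0.993). Vehicle 2 was the lowest lung for both genes, all other lungs overlapped, and the sign of the *Icam1* value turned without it (−0.44).

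*Angpt1* stood at 27.7, 21.4 and 21.5 CPM in vehicle lungs and at 41.8, 45.6 and 36.2 CPM in β-NMN lungs. The lowest β-NMN lung was above the highest vehicle lung, and the ratio of means was 1.75. The log2 fold change was 0.81 ± 0.22, with an unadjusted p of 0.00732 in edgeR's fit of all genes, an adjusted p of 0.969 and adjusted p between 0.321 and 0.997 over the alternatives; without vehicle 2 it was 0.74. *Angpt2* stood at 4.92, 6.36 and 2.78 CPM against 5.73, 8.78 and 5.54 CPM, and *Tek* at 181.0, 48.5 and 133.1 CPM against 173.1, 304.0 and 188.8 CPM. Both overlapped, at log2 fold changes of 0.53 ± 0.41 and 0.87 ± 0.50 (adjusted p = 0.969 for each), and without vehicle 2 they were 0.79 and 0.50.

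The junction genes of the lung were set largely by vehicle 2. *Cldn5* stood at 814.8, 3499 and 513.5 CPM in vehicle lungs and at 748.2, 561.1 and 649.8 CPM in β-NMN lungs. The fold change was −1.30 ± 0.71 on the log2 scale (edgeR adjusted p = 0.969) with all lungs and −0.03 without vehicle 2. *Cdh5* stood at 439.2, 173.2 and 380.5 CPM against 297.6, 624.0 and 399.4 CPM, and *Pecam1* at 719.1, 377.6 and 562.4 CPM against 596.8, 737.7 and 643.8 CPM. Vehicle 2 was the lowest lung for both genes, opposite to its place for *Cldn5*, and the log2 fold changes were 0.41 ± 0.44 and 0.25 ± 0.31 (adjusted p = 0.969 for each), or 0.10 and 0.04 without it. The 8 monocyte and macrophage markers summed to 1268 CPM in that lung, against 4015 and 4325 CPM in the other vehicle lungs and 5017 to 5471 CPM in β-NMN lungs. Most of this sum was *Lyz2*, at 1059 to 3920 CPM in vehicle lungs and 4674 to 5177 CPM in β-NMN lungs. Of the 8 markers, 5 had a fold change above 0 and 3 below, and 0 were called. The cardiomyocyte markers summed to between 246.6 and 420.4 CPM in vehicle lungs and between 66.6 and 233.6 CPM in β-NMN lungs, and the 4 atrial markers to between 86.6 and 375.04 CPM against 24.5 to 85.9 CPM, both lower in every β-NMN lung, as *Selp* was. The 7 platelet markers went the other way, with 6 of 6 tested above 0. They summed to between 33.6 and 52.3 CPM with vehicle and between 47.4 and 54.2 CPM with β-NMN, overlapping. The 6 fibroblast markers overlapped too (1175 to 1735 CPM against 946.8 to 1258 CPM), with 5 of 6 below 0. The part of these cells in the lung values was not tested. Against the mean of the 28 other endothelial markers, *Angpt1* (0.51) and *Tek* (0.72) were higher in every β-NMN lung, and *Selp* (−1.64) overlapped. Without vehicle 2 these differences were 0.61, 0.33 and −1.18.

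The effect of β-NMN was then compared between the organs in 1 fit of the 12 CLP libraries, as the lung effect minus the heart effect. No gene of the 10 was called by edgeR (smallest adjusted p = 0.960, with 0.0% of 18318 genes called), nor by DESeq2 or limma-voom. At an unadjusted p below 0.05 there were 3 of 10 genes, against 4.35% of all genes: *Selp* (difference of 2.42 ± 0.93 on the log2 scale), *Vcam1* (1.43 ± 0.49) and *Angpt1* (0.93 ± 0.36). In each of these the lung value was the higher. Without vehicle mouse 2 they were 1.47, 0.89 and 1.04. With the mouse as a block the 3 differences were 1.78, 1.45 and 0.93 (adjusted p = 0.948 for each), and over the alternatives the adjusted p of the 10 genes was never below 0.327. The separation seen in hearts is therefore not shown to differ from that in lungs.

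Levels did differ between the organs. On the common scale of the 12 libraries, edgeR called 5 of 10 genes, against 64.8% of all genes, so the share was below the background. In all, 3 were lower in lung (28.9% of all genes) and 2 higher (35.9%), and the median difference over all genes was 0.14 on the log2 scale. *Cldn5* was 17.4-fold higher in lung, at 416.2 to 2566 CPM with a median of 555.6 against 27.1 to 71.9 CPM with a median of 41.5 in hearts, higher in 6 of 6 mice (log2 difference 4.12 ± 0.47, edgeR adjusted p = 1.18e-05). Without the lung of vehicle 2 the highest lung was at 662.1 CPM and the log2 difference of *Cldn5* was 3.53 (edgeR adjusted p = 5.42e-07). *Icam1* was 4.94-fold higher in lung, at a median of 383.6 CPM (43.5 to 466.6) against 62.1 CPM (35.6 to 130.9), higher in 5 of 6 mice, vehicle 2 being the exception (2.31 ± 0.47, adjusted p = 0.00101).

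*Sele* went the other way, with a median of 1.18 CPM in lungs (0 to 2.89) and 5.64 CPM in hearts (1.87 to 31.9), lower in lung in 6 of 6 mice (log2 difference −2.50 ± 0.61, edgeR adjusted p = 0.00338). *Selp* was lower in lung in 5 of 6 mice (−1.32 ± 0.47, adjusted p = 0.0268), and *Angpt1* in 5 of 6 (−0.69 ± 0.18, adjusted p = 0.00586). For *Sele* and *Cldn5*, the exact two-sided sign-flip test over 6 mice gave 0.0313, the smallest value it allows, and for *Icam1*, *Angpt1* and *Selp* it gave 0.0625, 0.0625 and 0.0938. The *Selp* call was lost without β-NMN mouse 1 (adjusted p = 0.114) or 2 (0.0716) and under limma-voom (0.0971).

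The other 5 genes were not called between organs, with log2 differences of 0.65 for *Angpt2*, 0.35 for *Pecam1*, 0.30 for *Tek*, 0.08 for *Vcam1* and −0.02 for *Cdh5*. With the mouse as a block, which pairs the organs of each animal, *Angpt2* passed as higher in lung (0.84, edgeR adjusted p = 0.0379). When only the lung of vehicle 2 was left out, *Tek* (adjusted p = 0.0151) and *Pecam1* (0.00774) passed as higher in lung.

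**Figure D3:**
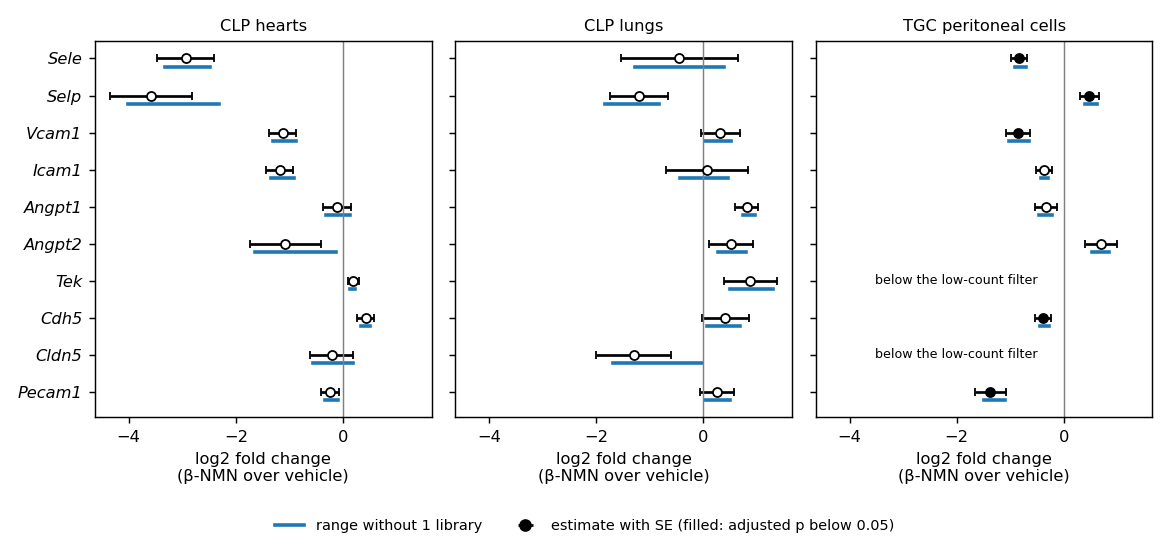
Log2 fold change of each gene, β-NMN over vehicle, in CLP hearts, CLP lungs and TGC peritoneal cells: circles with SE bars are edgeR estimates, filled where the adjusted p was below 0.05, and blue lines give the range when single libraries were left out. The 4 adhesion molecules sit furthest below 0 in hearts, and the filled circles are all in peritoneal cells.

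In TGC peritoneal cells after *E. coli*, β-NMN changed 5 of the 8 genes that passed the filter on low counts, 4 lower and 1 higher, by edgeR. This share is near the background, as 51.6% of all 14985 genes were called, 27.9% lower and 23.7% higher. DESeq2 called 6 of 8 (54.4% of all genes), limma-voom 8 of 8 (59.1%) and edgeR with the replicate block 5 of 8 (46.8%), and 7 of 8 had an unadjusted p below 0.05 by edgeR (57.3%), 5 of them lower (30.8%). Without β-NMN replicate 2 or 3, edgeR called 3 of 8, against 47.1% of all genes in each of these fits. *Tek* (at most 0.444 CPM) and *Cldn5* (at most 0.134 CPM) did not pass the filter.

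*Sele* ran from 5.81 to 10.4 CPM in the 6 vehicle samples, with a median of 7.41, and from 3.82 to 5.26 CPM in the 6 β-NMN samples, with a median of 4.32. The groups did not overlap, which held for 1 of 8 genes in this direction, against 14.0% of all genes. The log2 fold change of this fall was −0.84 ± 0.15 (edgeR adjusted p = 0.000292), and the exact two-sided permutation p was 0.00216, the smallest that 6 against 6 allow. *Selp* ran from 5.92 to 12.0 CPM (median 10.5) with vehicle and from 8.47 to 16.9 CPM (median 14.3) with β-NMN. Here the groups overlapped and the direction was opposite to that of *Sele*, with a rise of 0.47 ± 0.18 (adjusted p = 0.0363) that was lost in 4 of the 12 fits without a single library (highest adjusted p = 0.0686). The 7 platelet markers summed to between 30.8 and 64.8 CPM with vehicle and between 40.1 and 74.3 CPM with β-NMN, overlapping, with 1 of 3 tested called as higher, and their lowest sample in each group was that of *Selp* (vehicle 4 and β-NMN 6). The highest samples differed, being vehicle 3 and β-NMN 5 for these markers and vehicle 2 and β-NMN 3 for *Selp*. The part of platelets in the *Selp* value was not tested.

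*Vcam1* ran from 152.2 to 379.1 CPM (median 228.4) with vehicle and from 109.3 to 229.8 CPM (median 121.0) with β-NMN, and fell by −0.85 ± 0.22 (edgeR adjusted p = 0.0053). All but 1 of the β-NMN samples were below all vehicle samples, the exception being replicate 6. The 6 fibroblast markers were also lower, summing to between 89.9 and 957.4 CPM with vehicle and between 19.8 and 86.1 CPM with β-NMN, and vehicle replicate 3 was highest for both these markers and *Vcam1*. The 7 mural cell markers were lower in every β-NMN sample (9.48 to 30.2 CPM against 3.98 to 6.38 CPM, 3 of 5 tested called as lower), and of the 6 mesothelial markers, which summed to between 2.50 and 14.2 CPM against 1.24 to 4.47 CPM, 3 of 4 tested were called as lower. The part of these cells in the *Vcam1* value was not tested. *Icam1* ran from 730.4 to 1415 CPM (median 1218) with vehicle and from 762.2 to 1154 CPM (median 875.0) with β-NMN, overlapping, and did not pass (−0.36 ± 0.15, adjusted p = 0.0564).

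*Pecam1* had the largest log2 fold change of the 8 genes tested in these cells. It ran from 7.17 to 34.9 CPM (median 17.8) with vehicle and from 4.51 to 9.32 CPM (median 7.57) with β-NMN, and fell by −1.37 ± 0.29 (edgeR adjusted p = 0.00123), with overlap at the lowest vehicle sample, replicate 3. The 10 neutrophil markers, cells that carry PECAM-1, summed to between 511.8 and 1042 CPM with vehicle and between 352.8 and 469.0 CPM with β-NMN, and the 8 macrophage markers to between 5429 and 8302 CPM against 10255 to 11966 CPM. Both sums were without overlap. Of 8 neutrophil markers tested, 7 were called as lower and 1 as higher. Of the 8 macrophage markers, 3 were called as higher and 2 as lower, against 23.7% and 27.9% of all genes. The most abundant of them, *Lyz2*, ran from 3463 to 5658 CPM with vehicle and from 7029 to 8195 CPM with β-NMN. The 8 lymphocyte markers summed to between 32.9 and 160.1 CPM with vehicle and between 21.1 and 80.2 CPM with β-NMN, overlapping, with 6 of 8 called as lower and 0 as higher, and the highest and lowest samples of each group were the same for these markers as for *Pecam1*. The part of these cells in the *Pecam1* value was not tested.

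*Cdh5* ran from 4.34 to 6.81 CPM (median 5.33) with vehicle and from 3.26 to 4.60 CPM (median 4.28) with β-NMN. It fell by −0.38 ± 0.15 (edgeR adjusted p = 0.0407), but the call held in 3 of 12 fits without a single library. *Angpt1* (6.55 to 16.4 CPM against 7.26 to 15.1 CPM; −0.33 ± 0.21, adjusted p = 0.204) and *Angpt2* (0.467 to 1.84 CPM against 1.17 to 3.26 CPM; 0.70 ± 0.31, adjusted p = 0.0691) did not pass, and both overlapped. Depth fell into 2 classes here, with 5 libraries of at least 90571560 reads and 7 of at most 53319385, and the mean log2 differences within the deep and the other libraries had the same sign for all 8 genes tested, from −0.63 and −0.99 for *Sele* to −1.30 and −1.08 for *Pecam1*. With depth class as a covariate, *Cdh5* was no longer called (adjusted p = 0.0592).

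**Figure D4:**
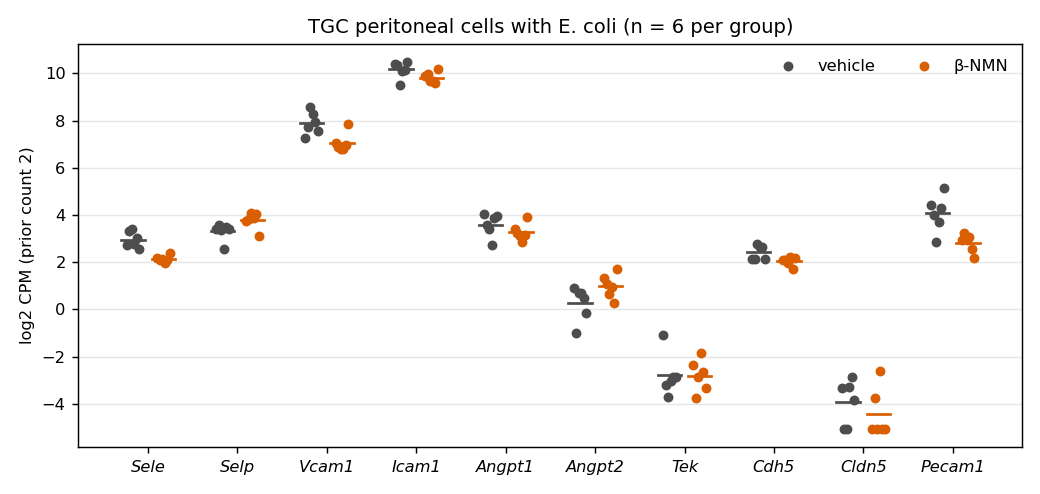
Log2 CPM of the 10 genes in each TGC peritoneal sample after *E. coli*, vehicle in grey and β-NMN in orange (6 each), with group means as bars. *Sele* is separated by treatment, *Selp* leans the other way, and *Tek* and *Cldn5* lie near the limit of detection.

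The other genes of the pathways were counted from lists, beside the same measures over all genes (median log2 fold change −0.0058 in hearts, 0.00057 in lungs and −0.022 in peritoneal cells). No list gene was called by edgeR in hearts or lungs. Of the endothelial response to cytokines and bacterial products, 14 of 19 genes tested in hearts were below 0, with a median of −0.60 (−0.37 without vehicle 2), and DESeq2 called 2 of 19 as lower, against 1.38% of all genes: *Tnfaip3*, an inhibitor of NF-κB signalling, at 22.05 ± 8.15 CPM with vehicle and 8.26 ± 2.72 CPM with β-NMN (SD, n = 3), and *Csf3*, the granulocyte growth factor, whose vehicle hearts ran from 0.584 to 22.4 CPM and β-NMN hearts from 0 to 0.124 CPM. In lungs 13 of 19 were below 0, with a median of −0.41 (−0.18 without vehicle 2). In peritoneal cells 12 of 17 fell and 0 rose, against 27.9% and 23.7% of all genes, with a median of −0.91, among them *Csf3* (−5.90, edgeR adjusted p = 8.94e-08) and *Bcl3* (−0.91, adjusted p = 3.07e-07), a nuclear partner of NF-κB. *Tek* and *Cldn5* were nearly absent from these cells, and which cells carried the listed transcripts was not tested.

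The other endothelial identity genes had a median of 0.19 in hearts, where 18 of 28 were above 0 (0.06 without vehicle 2), and 0.30 in lungs, where 19 of 28 were (0.09 without vehicle 2). The apelin receptor gene *Aplnr* separated by treatment in both organs, at 5.34 ± 1.94 CPM against 14.3 ± 6.12 CPM in hearts and 4.85 ± 1.46 CPM against 13.6 ± 7.87 CPM in lungs (SD, n = 3). In hearts *Tie1*, the partner receptor of Tie2, stood at 139.6 ± 13.04 CPM against 196.0 ± 14.7 CPM. DESeq2 called 2 of 28 genes there, *Aplnr* (adjusted p = 0.0273) and *Tie1* (0.0350), both as higher. Over all genes it called 1.61% in either direction and 1.38% as lower. In this list 8 of 28 lay above and 2 below vehicle in every β-NMN heart (11.6% and 11.5% of all genes). In lungs 5 lay above and 1 below (4.47% and 3.75%). In peritoneal cells 15 of the 28 were tested, and 2 rose and 8 fell, against 23.7% and 27.9% of all genes, with *Cd93* (1.04, edgeR adjusted p = 7.48e-07) and the VEGF receptor gene *Flt1* (−1.70, adjusted p = 8.95e-07) at the lead.

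Leukocyte partners of the adhesion molecules were below 0 for 10 of 13 genes in hearts (median −0.30, and −0.16 without vehicle 2) and for 7 of 13 in lungs (median −0.02, and −0.19 without vehicle 2). The β2 integrin chain gene *Itgb2*, whose product binds ICAM-1, stood at 24.9 ± 1.81 CPM in vehicle hearts and 17.1 ± 0.19 CPM in β-NMN hearts, and *Itgam*, its αM partner, at 34.7 ± 2.61 CPM against 24.2 ± 1.27 CPM (SD, n = 3). Both separated by treatment. In this list 4 of 13 genes lay below and 0 above vehicle in every β-NMN heart, against 11.5% and 11.6% of all genes. DESeq2 called *Itgb2* (adjusted p = 0.00599) and *Itgam* (0.0166) as lower, 2 of 13 against 1.38% of all genes. In peritoneal cells 4 of 13 rose and 3 fell, against 23.7% and 27.9% of all genes, with *Itgal*, the αL partner, at −2.69 (edgeR adjusted p = 8.60e-08) and *Itga9* at −1.47 (adjusted p = 1.19e-05).

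In the angiopoietin and VEGF list, 12 of 17 genes were above 0 in hearts (median 0.15, and 0.12 without vehicle 2) and 10 of 17 in lungs (median 0.26, and 0.17 without it). *Klf2*, a transcription factor that flow induces in endothelium, stood at 129.96 ± 6.63 CPM in vehicle hearts and 94.6 ± 9.71 CPM in β-NMN hearts, without overlap, and *Vegfd* stood at 27.4 ± 10.7 CPM against 49.4 ± 9.25 CPM in lungs. In hearts 2 of 17 genes lay below and 4 above vehicle in every β-NMN sample, against 11.5% and 11.6% of all genes. DESeq2 called *Klf2* as lower there (adjusted p = 0.0475), 1 of 17 against 1.38% of all genes, and 1 gene of this list, *Tie1*, as higher. In peritoneal cells 4 of 14 rose and 6 fell, against 23.7% and 27.9% of all genes, *Klf2* by −1.60 (edgeR adjusted p = 4.74e-07).

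Other junction genes had medians of −0.04 in hearts (15 of 26 below 0) and −0.05 in lungs (15 of 26 below 0; 0.03 without vehicle 2). The connexin gene *Gja5* (21.1 ± 15.1 CPM against 7.18 ± 0.73 CPM) and the sphingosine kinase gene *Sphk1* (27.3 ± 32.6 CPM against 4.06 ± 0.34 CPM) separated in hearts. In this list 7 of 26 genes lay below and 2 above vehicle in every β-NMN heart, against 11.5% and 11.6% of all genes. DESeq2 called *Sphk1* as lower (adjusted p = 0.0157), 1 of 26 against 1.38% of all genes. The log2 fold changes of *Gja5* and *Sphk1*, −1.56 and −2.75, came to −0.81 and −1.08 without vehicle 2. Vehicle heart 2 also held 9639 CPM of the 4 atrial markers, and their part in the *Gja5* value was not tested. In peritoneal cells 5 of 24 rose and 11 fell, against 23.7% and 27.9% of all genes, among them *Gja1* (−2.60, edgeR adjusted p = 2.71e-06) and *Heg1* (−1.03, adjusted p = 2.39e-05). Of the glycocalyx genes, 6 of 11 were below 0 in hearts (median −0.26, and 0.0081 without vehicle 2), where the hyaluronan synthase gene *Has1* (7.97 ± 4.59 CPM against 0.894 ± 0.554 CPM) and the syndecan gene *Sdc4* (122.8 ± 86.3 CPM against 36.7 ± 3.81 CPM) were called as lower by DESeq2 (adjusted p = 2.61e-05 and 0.0130). *Has1* and *Sdc4* were 2 of 11 genes so called, against 1.38% of all genes. Their edgeR log2 fold changes of −3.13 and −1.74 came to −2.61 and −1.0003 without vehicle 2. In lungs 3 of 10 were below 0 (median 0.21, and −0.11 without vehicle 2), and in peritoneal cells 3 of 11 rose and 5 fell, against 23.7% and 27.9% of all genes, *Has1* by −3.19 (edgeR adjusted p = 3.03e-06), while *Hpse*, which encodes heparanase, rose by 0.89 (adjusted p = 1.00e-04).

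The patterns over the 12 CLP libraries, with each organ's mean subtracted, were compared among 11237 genes by Pearson correlation, as a description over libraries that share animals and treatment. *Sele* was most like *Icam1* (r = 0.96, and 0.94 over the 10 libraries without vehicle mouse 2), *Hs3st3b1* (0.94 and 0.88) and *Nlrp3* (0.94 and 0.92). Its likeness to *Vcam1* was 0.91 (0.87 without that mouse), and that to *Selp* was 0.49 with the mouse and 0.93 without it. *Angpt2* was most like *Sema3c* (0.92 and 0.85), *Tmx4* (0.90 and 0.81) and *2010111I01Rik* (0.87 and 0.78), and *Cdh5* most like *Adgrl2* (0.97 and 0.94), *Zfp41* (0.96 and 0.91) and *Nfatc3* (0.96 and 0.90). Among the 10 genes, *Cdh5* was nearest to *Tek* (0.89 and 0.73).

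By their annotated positions (GENCODE M21, build GRCm38), *Sele* spans chr1:164048234-164057677, *Selp* chr1:164115264-164150026, *Icam1* chr9:21015985-21028817, *Tek* chr4:94739289-94874976, *Cdh5* chr8:104101625-104144511 and *Cldn5* chr16:18776847-18778262 on the plus strand. On the minus strand lie *Vcam1* at chr3:116109949-116129688, *Angpt1* at chr15:42424723-42676977, *Angpt2* at chr8:18690263-18741562 and *Pecam1* at chr11:106654217-106750628. Exons of *Selp*, *Vcam1*, *Icam1* and *Angpt1* overlap antisense transcripts, which the counting setting for strand, not given in the sources used here, may or may not have told apart. The reads counted for these transcripts came to at most 7.69% of those of *Angpt1* (*Gm17473*), 4.52% of those of *Selp* (*Gm16587*), and under 0.25% of those of *Vcam1* and *Icam1* (0.162% for *Gm43109* and 0.243% for *Gm47079*) in any library.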

How the data were processed

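Deposited tables of counts were used: whole numbers of reads per gene, not normalized, which the authors made from poly(A) libraries (150 bp reads) aligned to mm10 with STAR and counted with featureCounts 2.0.0, per the labels and the study's methods; the gene annotation and the strand setting are not given in the sources used here. The CLP organs carry a source label that names thioglycollate, while their titles and tissue labels say CLP, which was followed. 1 β-NMN heart shares the number 3 with another and was taken as replicate 2, the number of the lung from that mouse. No column lacked a sample (0).

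Genes that edgeR's filter removed as low were not tested. Each comparison was fitted in edgeR 4.0.16 (R 4.3.3) on TMM-scaled counts by the quasi-likelihood test with Benjamini-Hochberg adjustment over all genes tested (adjusted p threshold 0.05): 16245 genes in hearts, 17008 in lungs, 14985 in peritoneal cells and 18318 over both organs. CPM values are TMM-scaled within each fit. DESeq2 1.42.0, limma-voom (limma 3.58.1), other filters and scalings, a replicate block and fits without single libraries were the alternatives. The fits were tested on simulated data with known changes. No replicates agreed within sampling noise. Hearts and lungs came from the same mice, so the mouse block pairs them (correlations of 0.064 to 0.171 between the organs' deviations). The 10 genes and the lists were chosen with earlier results of these data known; of each list, the 2 genes with the smallest p in a comparison were named. Intervals and floors cover counting error only.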

Additional observations from a re-analysis of the deposited data

Results flagged for a closer look

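Of 20 sets of 6 peritoneal samples tested for a sample far from the rest, 4 held one, and chance flags about 1 in 20 groups. *Selp* was 5.92 CPM in vehicle replicate 4, below the other vehicle samples. *Vcam1* was 229.8 CPM in β-NMN replicate 6, above the other β-NMN samples. In that library the fibroblast markers summed to 54.9 CPM, inside the range of its group (19.8 to 86.1), while it was the highest of its group for the other endothelial markers (498.4 CPM) and for mural (6.38 CPM), neutrophil (469.0 CPM) and mesothelial markers (4.47 CPM) and the lowest for platelet (40.1 CPM), lymphocyte (21.1 CPM) and monocyte and macrophage markers (10255 CPM). *Tek* was 0.444 CPM in vehicle replicate 1 and *Cldn5* 0.134 CPM in β-NMN replicate 4, both above their groups and at levels that the low-count filter removed.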

How the results depend on the processing

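Calls in CLP hearts depended on the test: edgeR called 0 of the 10 genes and DESeq2 4, with or without vehicle replicate 2 (4), and over all genes 0 became 3 with no filter, 262 with DESeq2, 410 with DESeq2 without vehicle 2 and 3 with limma-voom, while edgeR without single hearts called 0 to 5, with 5 without vehicle 2, and DESeq2 called 10 list genes, or 18 without vehicle 2, against 0 with edgeR. In lungs 0 genes became 9 with DESeq2, 7 with limma-voom and 23 with DESeq2 without vehicle 2; for the organ difference in effect 0 became 2 with no filter and 14 with DESeq2. limma-voom called 8 of the 8 genes tested in peritoneal cells (59.1% of all genes) and 8 of 10 between organs (80.1% of all genes), where edgeR called 5 in each, or 3 to 6 without single peritoneal samples and 4 to 7 without single mice or libraries. Directions reversed for genes with changes near 0, set by vehicle 2 or, for lung *Sele* (−0.45 ± 1.09), smaller than the SE: heart *Angpt1* (−0.32 to 0.13 without single hearts), heart *Cldn5* (0.075 with limma-voom, 0.19 with DESeq2 without vehicle 2, −0.56 to 0.18), lung *Sele* (−1.27 to 0.39), lung *Icam1* (−0.18 with limma-voom, −0.44 with DESeq2 without vehicle 2, −0.44 to 0.45), lung *Pecam1* (−0.0044 with limma-voom), the organ difference in effect of *Cdh5* (0.037 with the mouse block, −0.35 to 0.19 without single mice, with 0.085, 0.12 and 0.092 without vehicle 3, β-NMN 1 and β-NMN 3) and *Cldn5* (−1.29 to 0.14), and lung minus heart for *Vcam1* (−0.14 to 0.25, with −0.084 and −0.071 without vehicle 1 and 3) and *Cdh5* (0.091 with limma-voom, −0.19 to 0.14, with 0.041 and 0.019 without β-NMN 1 and 3). The cause was not tested. The replicate block left 0 of the 10 genes called in hearts and lungs and 5 in peritoneal cells, where *Icam1* was gained (adjusted p = 0.0305) and *Cdh5* lost (0.103). These blocks are known only by a shared number within hearts, lungs and peritoneal cells, where same-numbered samples deviated together with correlations of 0.073 to 0.24, −0.52 to 0.30 and −0.17 to 0.13. In hearts each same-numbered vehicle and β-NMN sample was the other's best match, and in lungs and peritoneal cells none was. The shallowest lung held 8915366 reads, and *Sele* in lungs, a low gene, had an SE of 1.09 on the log2 scale.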
